A study of Mus musculus with 117 samples.

Results

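The transcripts of 10 mouse prostatic adenocarcinomas were compared with those of normal prostate cells in 8 sorted samples. These 18 samples were taken by their labels alone from the 117 samples of a series on single-colour Affymetrix arrays. The tumours were all samples whose source was prostatic adenocarcinoma. The normal cells were all sorted prostate samples, 3 of Prom1-positive and 5 of Prom1-negative cells, and the normal reference of a gene was the mean of both sorted group means. All mice were of the C57BL/6 strain. The series describes mice with conditional Prom1 mutations, but the labels give no genotype, allele, Cre driver or age for any tumour or sorted sample. Tumour pieces were frozen whole, whereas the normal glands were dissociated into single cells and separated with anti-Prom1 MicroBeads. RNA of both kinds was extracted with the same PicoPure kit. Tumour state can therefore not be told apart from genotype, or from the absence of dissociation and sorting. Whether each sample came from its own mouse is not stated, and the p-values below therefore speak only of the scatter among samples, which may be technical.

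The mouse prostate is built of glands in which luminal secretory cells sit on basal cells, within a sleeve of smooth muscle. Under the androgen receptor the luminal cells make proteins of the seminal fluid such as probasin, and the seminal vesicles beside the prostate make the proteins of the copulatory plug. Prom1 encodes prominin-1, a membrane glycoprotein used to enrich stem and progenitor cells. In canonical Wnt signalling beta-catenin joins TCF/LEF factors on DNA, and many of the genes they switch on, such as Axin2, Nkd1, Notum and the Dkk genes, damp the pathway in return.

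All levels and differences below are in log2 units, in which a difference of 1 is a 2-fold change. The median of these arrays lay between 3.69 and 3.82, and a level under it can be background, which makes the difference a lower bound. Upper quartiles were 6.46 to 6.53 in tumours, against 6.17 to 6.37 in Prom1-positive and 6.05 to 6.44 in Prom1-negative samples. The log2 ratio of 3' to 5' Gapdh signal was 0.54 ± 0.19 in tumours (SD, n = 10), against 0.997 ± 0.054 in positive cells (SD, n = 3) and 0.64 ± 0.14 in negative cells (SD, n = 5). The part of this tilt in the results was not tested. Tumour 10 stood apart, with a correlation across genes of 0.932 to the mean of the other tumours, against 0.952 to 0.992 for the other 9. Negative sample 1 had the lowest upper quartile, 6.05. Where either sample stood far from its group for a gene, its own level is given, with the difference without it for many of those genes. By limma over all 117 samples, 5385 of 14663 genes differed between tumours and the normal reference at an adjusted p under 0.05 (36.7%). Of these 3062 were higher in tumours (20.9%) and 2323 lower (15.8%), a split that turned to 2070 higher and 2760 lower with each array's upper quartile as a covariate. Counts of list members below are to be read beside these shares as reported, 20.9% of all genes higher and 15.8% lower. All 10 tumours lay above all 8 sorted samples for 969 genes (6.61%) and below them for 422 (2.88%). Below, "rose" and "fell" are used only of genes past that threshold in the comparison named, and of the comparison with the normal reference where none is named.

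The labelled tissue was checked first against its own genes. Transcription factors of the prostate lineage were far above the array medians in every tumour: Hoxb13, a homeobox factor of the prostate, lay between 7.95 and 10.97, and Foxa1, a pioneer factor of luminal cells, between 10.58 and 11.48. Their levels in the sorted cells were 9.32 to 11.50 and 10.25 to 11.38. Hoxb13 fell by 0.97 (SE 0.23, adjusted p = 0.000383), with overlapping groups, and Foxa1 differed by 0.29 (adjusted p = 0.744). Prom1, the gene of the sort, had levels of 7.44 to 10.42 in tumours (median 8.93), against 9.69, 10.28 and 10.56 in positive cells and 7.89 to 9.24 in negative cells. Tumours spanned the levels of both sorted groups. The difference from the normal reference was -0.26 (95% interval -1.87 to 1.34, adjusted p = 0.841).

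Secreted products of the prostate were among the largest falls. Of the 9 members of the prostate secretory list that passed the filter on dim genes, from 11 listed, 8 fell and none rose, where 15.8% of all genes fell and 20.9% rose. The median difference of the list was -4.75, against 0.01 over all genes. Against positive cells alone 24.6% of all genes passed (11.5% lower), and against negative cells alone 35.0% (14.4% lower). The same 8 members fell in both comparisons, which share the tumours. The exception was Pigr, the receptor that carries immunoglobulin A into secretions, with levels of 9.94 to 12.22 in tumours (median 11.04), against 8.50 to 10.06 in positive and 8.91 to 10.88 in negative cells. Its difference of 1.44 was not past the threshold (adjusted p = 0.191). In bulk samples, fewer cells of a type and less RNA per cell cannot be told apart.

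Sbp, the spermine-binding protein of the ventral prostate, split the tumours. It lay between 2.42 and 2.99 in tumours 1 to 8, at 12.86 in tumour 9 and at 12.64 in tumour 10, against 13.04 to 13.45 in positive cells and 13.11 to 13.55 in negative cells. So 8 tumours were at background and the other two were near the sorted cells, with no overlap. Sbp fell by 8.56 (SE 0.68, adjusted p = 6.65e-20) and, without tumour 10, by 9.45. The SE rests on a spread shared by 19 groups, while the SD over the tumours alone was 4.25. The SE and adjusted p can therefore be too small for a gene whose tumours scatter widely. The same limit holds for Msmb and Spink1 below, with tumour SDs of 3.46 and 4.05. Over the alternative settings of the limma fit the largest adjusted p of Sbp was 0.000115. Msmb, the microseminoprotein of prostatic fluid, had the same 2 high tumours, at 11.70 in tumour 9 and 9.60 in tumour 10, with tumour 5 at 6.02 and the rest between 2.35 and 2.70. Its sorted levels were 12.63 to 13.27 in positive and 11.52 to 12.45 in negative cells, and it fell by 8.01 (SE 0.51). Spink1, a trypsin inhibitor of secretions, was at 11.85 in tumour 9, 12.31 in tumour 10, 8.75 in tumour 7 and 2.39 to 3.84 in the other tumours, against 12.78 to 13.06 in positive and 12.83 to 13.10 in negative cells. All tumours lay below the sorted samples, and it fell by 7.64 (SE 0.89).

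Pbsn, probasin, the lipocalin whose promoter drives most prostate transgenes, was lost unevenly. Its levels in tumours 1 to 10 were 2.49, 9.92, 5.69, 7.23, 12.10, 6.78, 4.02, 11.22, 11.55 and 9.21, against 12.97 to 13.39 in positive cells and 12.89 to 13.40 in negative cells. All tumours were below all sorted samples, and tumours 5, 8 and 9 were the closest. The gene fell by 5.12 (SE 0.52, adjusted p = 1.28e-14). The SEs of Pbsn and of Tgm4 below rest on the same shared spread, while their SDs over the tumours alone were 3.31 and 1.83. Tgm4, the transglutaminase that clots semen, was at 4.98 in tumour 10, the lowest, with a median of 8.91 and 11.66 in tumour 5, the highest, against 13.27 to 13.55 in positive and 12.86 to 13.58 in negative cells. It fell by 4.36 (SE 0.31), again without overlap. Tumour 10 was thus among the highest tumours for Sbp, Msmb and Spink1 and the lowest for Tgm4. Apof, an apolipoprotein, fell by 4.75, Wfdc15b, of the whey acidic protein family, by 3.95, and Azgp1, a zinc-binding glycoprotein of secretions, by 3.08. Azgp1 and Wfdc15b overlapped the sorted cells. Wfdc15b shows why both sorted groups matter, since positive cells were at 10.79 to 11.88 and negative cells at 7.20 to 8.53, against 3.93 to 7.37 in tumours.

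The 250 bases before the starts of the genes of the prostate secretory list were searched for TGTTCT, the half-site letters of the androgen receptor, on both strands (AGAACA on the other). The RefSeq table of GRCm38.p6 held promoters for 6 of the 9 genes, and 4 had a match: Pbsn, Pigr, Wfdc15b and Sbp, the last at 1 of 3 listed starts. Pigr was not called, so that 3 of the 5 with a promoter that fell had a match. Of all 32851 promoters in the table, 16.1% had one. Shown in the direction of transcription, with the matches in capitals, are the promoter of Pbsn at chrX:77853501-77853750 (minus strand), where the match begins 95 bases before the start, and that of Sbp at chr17:23941668-23941917 (plus strand), where it begins 64 bases before. Both genes are shown because their loss is described above, and a match is a run of letters, not a known site.
Pbsn: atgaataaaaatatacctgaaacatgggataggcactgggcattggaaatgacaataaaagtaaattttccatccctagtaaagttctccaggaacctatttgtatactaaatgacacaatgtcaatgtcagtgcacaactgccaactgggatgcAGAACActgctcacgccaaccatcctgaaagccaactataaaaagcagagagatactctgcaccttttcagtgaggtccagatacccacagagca
Sbp: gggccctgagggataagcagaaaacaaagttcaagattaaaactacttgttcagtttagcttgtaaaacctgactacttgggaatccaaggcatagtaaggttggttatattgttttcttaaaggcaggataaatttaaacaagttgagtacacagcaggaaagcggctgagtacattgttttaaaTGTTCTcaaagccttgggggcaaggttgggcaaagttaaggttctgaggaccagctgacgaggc

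**Figure D1:**
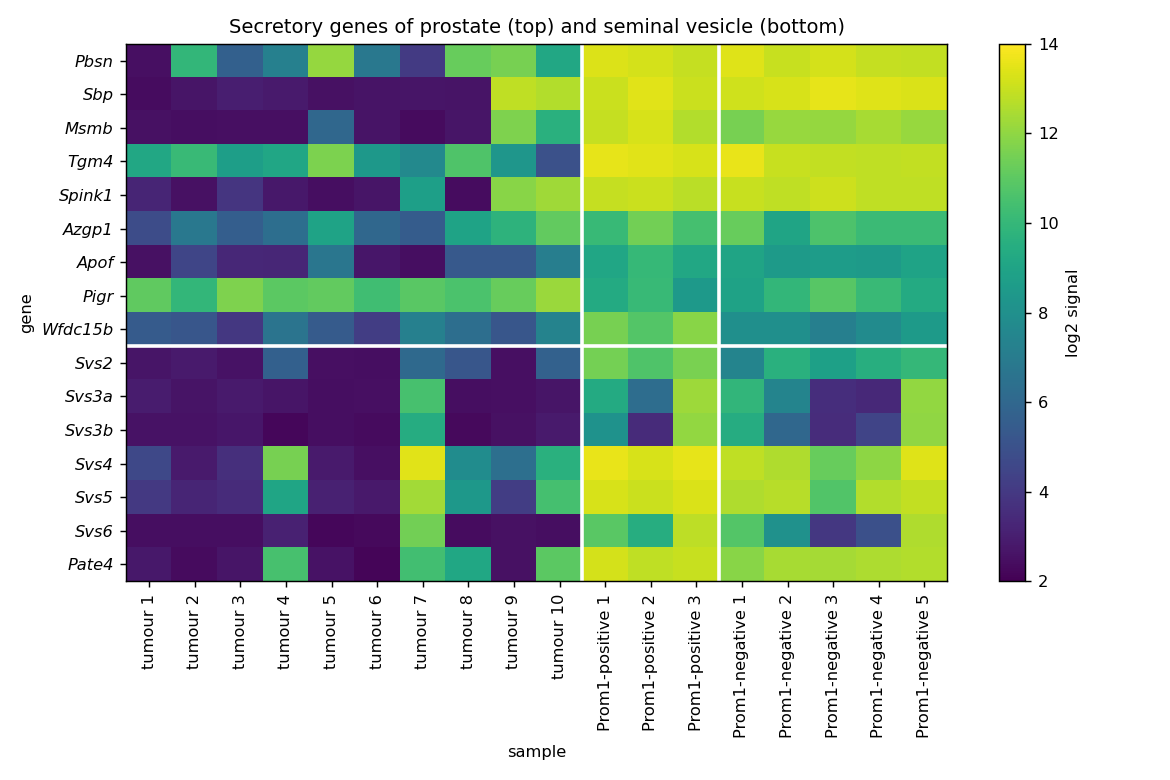
Log2 signal (colour, 2 to 14) of 9 prostate secretory genes (above the white line) and 7 seminal vesicle genes (below it) in each sample, with the 10 tumours on the left, then the 3 Prom1-positive and 5 Prom1-negative samples. Sbp, Msmb and Spink1 stayed bright in tumours 9 and 10, Svs3a, Svs3b and Svs6 in tumour 7 alone among tumours, and Pigr was bright in all 18 samples.

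Genes of the seminal vesicle, the gland beside the prostate, were bright in the sorted cells and lost from most tumours. Of 13 seminal vesicle and urothelium genes that passed the filter, 9 fell and none rose (median -4.28). The mean level of the list was 3.19 to 7.57 in tumours, against 7.48 to 8.75 in positive and 6.44 to 8.77 in negative cells. Its part in the other falls was not tested. Svs4 had 2.48 to 4.59 in tumours 1, 2, 3, 5 and 6, 6.40 in tumour 9, 7.82 in tumour 8, 9.62 in tumour 10, 11.54 in tumour 4 and 13.47 in tumour 7. The sorted levels were 13.27 to 13.61 in positive and 11.21 to 13.43 in negative cells, so tumours 4 and 7 overlapped them. Svs4 fell by 6.41, Svs5 by 6.65 and Svs2 by 6.34. Svs6 was at 11.43 in tumour 7 and at 2.19 to 3.12 in the other 9, against 9.48 to 12.78 in positive cells and 3.95 to 12.59 in negative cells. It fell by 6.18 (adjusted p = 4.49e-17). That p too rests on the spread shared by 19 groups, while the SD over the tumours alone was 2.84. Pate4, a small secreted protein of the seminal vesicle, was high in tumours 4, 7, 8 and 10 (10.52, 10.39, 9.13 and 10.95) and at 2.17 to 2.80 in the others, against 12.86 to 13.24 in positive and 11.85 to 12.61 in negative cells. It fell by 7.08 and Pate14 by 7.51. The high tumours for these genes were not those for Sbp and Msmb, apart from tumour 10. Svs, Pate, Scgb and Sprr2 genes have near copies in the genome, so which copy a probe set reads is uncertain.

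Further falls outside those lists concerned ion and steroid handling and mucus. Atp12a, a proton and potassium pump, was at 2.83 to 6.33 in tumours (median 4.21), against 10.13 to 10.36 in positive cells and 8.91 to 10.45 in negative cells, and fell by 5.48 without overlap. Fcgbp, a mucin-like protein, was at 4.40 to 10.79 in tumours (median 7.48), against 12.85 to 12.91 in positive and 12.85 to 13.05 in negative cells, and fell by 5.61. Scgb2b27, a secretoglobin, was at 2.16 to 2.47 in tumours 1 to 8, 4.60 in tumour 9 and 7.57 in tumour 10, against 7.83 to 10.69 in positive and 8.43 to 10.59 in negative cells. It fell by 6.47, and by 6.97 without tumour 10, and followed Sbp and Msmb in its high tumours. Sult1e1, the estrogen sulfotransferase, fell by 5.73, with 2.24 to 6.83 in tumours, 6.02 to 7.31 in positive cells and 10.14 to 11.28 in negative cells. Tumour 10 alone reached the lowest positive sample.

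Genes downstream of the androgen receptor moved less evenly than the secretions. Among 12 members of the androgen list that passed, 1 rose and 3 fell (median -0.32), near the share of all genes. The faller with the largest change was Fkbp5, a chaperone of steroid receptors, with 7.35 to 9.04 in tumours (median 7.84), against 9.49 to 10.53 in positive and 8.12 to 10.06 in negative cells. It fell by 1.78 (SE 0.32, adjusted p = 4.4e-06), and only negative sample 1 overlapped the tumours. The zinc finger factor Zbtb16 fell by 1.42 with overlap. Steap2, a metalloreductase of prostate epithelium, rose by 2.94 (SE 0.48), with 5.85 to 8.38 in tumours, 3.49 to 3.76 in positive and 3.72 to 4.89 in negative cells.

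The machinery of protein secretion was lower in tumours too. Of 13 genes of the secretory pathway and the unfolded protein response 11 fell (median -1.48), and for 10 of them all tumours lay below all sorted samples, where 2.88% of all genes did. Creld2, a foldase of the endoplasmic reticulum, was at 8.18 to 8.99 in tumours (median 8.62), against 10.68 to 11.95 in positive and 10.37 to 11.19 in negative cells, and fell by 2.48 (SE 0.26). Sdf2l1 fell by 2.43, the stress factor Ddit3 by 1.87, Herpud1, of the degradation of misfolded proteins, by 1.76, Dnajb9 by 1.64 and the chaperone Hspa5 by 0.96. Agr2, a disulfide isomerase of mucus-making cells, fell by 3.44. Xbp1, a transcription factor of secretory cells, was not past the threshold (0.19, adjusted p = 0.256).

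Genes of polyamine and citrate metabolism, both products that the prostate secretes in quantity, of zinc transport and of metallothioneins, which bind zinc, gave 5 falls and 3 rises among 14 genes (median -0.28). Odc1, the first enzyme of polyamine synthesis, was at 5.59 to 6.61 in tumours (median 5.95), against 7.77 to 8.52 in positive and 7.55 to 8.20 in negative cells, and fell by 2.01. The spermidine synthase Srm fell by 0.96 and the spermine synthase Sms by 0.82, while Smox, which oxidises spermine, rose by 1.75. The other risers were the aconitase Aco1 (0.96) and the zinc transporter Slc39a1 (0.65). The metallothioneins Mt1 (by 1.47) and Mt3 (by 2.44) fell.

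Simple epithelial and luminal progenitor genes were higher in tumours, more clearly against negative than against positive cells. Of 16 members that passed 7 rose and none fell (median 1.04). For 10 members all tumours lay above all sorted samples, where 6.61% of all genes did. Against positive cells 3 members rose (median 0.79), where 13.1% of all genes rose. Against negative cells 9 rose (median 1.42), where 20.6% of all genes did. Ly6d, a small membrane protein of castration-resistant luminal progenitors in the mouse, was at 9.96 to 11.48 in tumours (median 10.85), against 3.90 to 4.52 in positive and 6.29 to 7.53 in negative cells. It rose by 5.21 (SE 0.77, adjusted p = 2.88e-08), with every tumour above every sorted sample. Krt7, a keratin of simple ducts, was at 10.45 to 11.61 (median 11.05), against 7.15 to 7.65 in positive and 6.76 to 7.80 in negative cells, and rose by 3.66. Krt4, a keratin of proximal prostate ducts, rose by 2.98. For Ly6d and Krt7 the gap between the lowest tumour and the highest sorted sample was wider than the range within the tumours. Krt19 (1.54), the luminal keratin Krt8 (1.16), the adhesion molecule Cdh1 (1.36) and the progenitor factor Sox9 (1.48) rose too, but less firmly. Krt8 and Krt19 lost their calls when any one of the 3 positive samples was left out (Krt8 also without negative sample 5), and Cdh1 without positive sample 1 or 2, with adjusted p up to 0.136, 0.186 and 0.117 over all settings. With the upper quartile covariate 4 members of the list rose. The epithelial genes Krt18 (0.69, adjusted p = 0.207) and Epcam (0.88, adjusted p = 0.141) were not called although their groups did not overlap.

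Basal cell genes gave a mixed picture. The basal keratins Krt5 and Krt14 and the basal transcription factor Trp63 were not called, with differences of 0.51, 0.47 and 0.74 (adjusted p = 0.387, 0.542 and 0.132). Adhesion genes of the basal side rose in part. Itga6 was at 7.82 in tumour 10 and 9.58 to 10.50 in the other tumours, against 7.35 to 7.57 in positive and 8.04 to 8.89 in negative cells, and rose by 1.88. Itgb4, its partner in hemidesmosomes, rose by 2.25 and the laminin chain Lamb3 by 2.49, while the linker Dst (-0.23, adjusted p = 0.583), the cadherin Cdh3 (0.06, adjusted p = 0.842) and the desmosome protein Perp (-0.01, adjusted p = 0.99) were not called. Ngfr, a neurotrophin receptor of basal cells and nerve, fell by 1.68. Over the 13 members of the basal list, 4 rose and 1 fell (median 0.51), where 20.9% of all genes rose and 15.8% fell. The fourth riser, Col17a1 (1.12, adjusted p = 0.0469), was lost in 19 of 33 alternative settings, tumour 10 left out among them (adjusted p = 0.0661).

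Several of the largest rises without overlap were in genes of the cornified envelope and the hair follicle, which were at or near background in most sorted samples. Tchh, trichohyalin of the inner root sheath of hair, was at 7.15 in tumour 10 and 8.79 to 10.67 in the other 9, against 2.21 to 2.52 in positive and 2.40 to 2.90 in negative cells. It rose by 7.03 (SE 0.32, adjusted p = 6.22e-37). Prr9, a proline-rich protein of the epidermal differentiation cluster, was at 11.67 in tumour 10 and 12.69 to 13.07 in the others, against 4.02 to 6.58 in positive cells and 3.43 to 5.15 in negative cells, with negative sample 1 at 9.66. It rose by 7.39 (SE 0.52), and by 7.92 without negative sample 1. Sprr2h, a cornified envelope precursor, rose by 6.06, with 6.52 in tumour 10 and 8.30 to 10.55 in the other tumours, against 2.79 to 2.92 in positive and 2.72 to 3.42 in negative cells. These 3 genes were named for the size of their rise and not as members of a list. For them every tumour lay above every sorted sample, and tumour 10 was the lowest tumour.

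Sprr2a1, another envelope precursor, was bright in the sorted cells too. It was at 12.52 to 13.29 in tumours (median 12.94), against 6.04 to 9.22 in positive and 7.14 to 9.80 in negative cells, and rose by 4.77. Sp6, a transcription factor of hair and tooth epithelium, rose by 4.98, with 6.07 in tumour 10 and 8.60 to 9.36 in the other tumours, against 3.68 to 4.62 in positive and 3.05 to 3.66 in negative cells. Among the 15 members of the squamous list that passed, 6 rose and none fell (median 0.70): Sprr2a1, Cnfn (4.42), Ivl (3.73), Lor (3.72), Krt6a (2.75) and Sprr1a (2.59). Cornifelin (Cnfn), involucrin (Ivl) and loricrin (Lor) are proteins of the cornified envelope, and Krt6a is a keratin of activated epidermis. The keratins of stratified epithelium Krt1, Krt10 and Krt13 were not called, with Krt13 at 2.49 to 3.29 in tumours and 2.63 to 3.34 in sorted cells. Tumour 10 was at 3.59 for Cnfn, 3.62 for Lor and 3.36 for Krt6a, well under the other tumours, but at 8.81 for Ivl it was the highest. Without it the differences were 4.79 for Cnfn, 4.04 for Lor and 3.09 for Krt6a. Negative sample 1 stood above the other negative samples for Ivl (8.22) and Sprr1a (11.13) and overlapped the tumours, and without it the differences were 4.09 for Ivl and 2.90 for Sprr1a. Both calls held in all 33 alternative settings.

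Other genes with the largest non-overlapping rises were not of that family. Defa21, an antimicrobial alpha-defensin known from Paneth cells of the mouse intestine, was at 8.62 in tumour 10 and 9.83 to 11.29 in the others, against 2.60 to 3.30 in positive and 2.48 to 3.13 in negative cells, and rose by 7.60 (SE 0.33). Over the series it was otherwise bright only in sorted intestine, at 8.31 ± 1.41 in positive (SD, n = 3) and 5.68 ± 3.02 in negative cells (SD, n = 5), with all other groups averaging under 3. Alpha-defensins are near copies of one another, and the copy read is uncertain. Cryba4, a lens crystallin, rose by 5.60, the calcium-binding protein S100a14 by 5.22, the iron exporter Slc40a1 by 5.06 and Arg1, which splits arginine, by 4.82. The aspartic protease Ctse rose by 4.81, the thyroid hormone-binding crystallin Crym by 4.72, and Ltbp2, a matrix protein that binds microfibrils, by 4.54. Slc40a1 was at 8.66 in tumour 10 and 10.59 to 11.12 in the other tumours, against 3.89 to 8.12 in positive and 4.10 to 5.92 in negative cells. Every tumour exceeded every sorted sample, though positive sample 3 came within 1 unit of tumour 10.

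**Figure D2:**
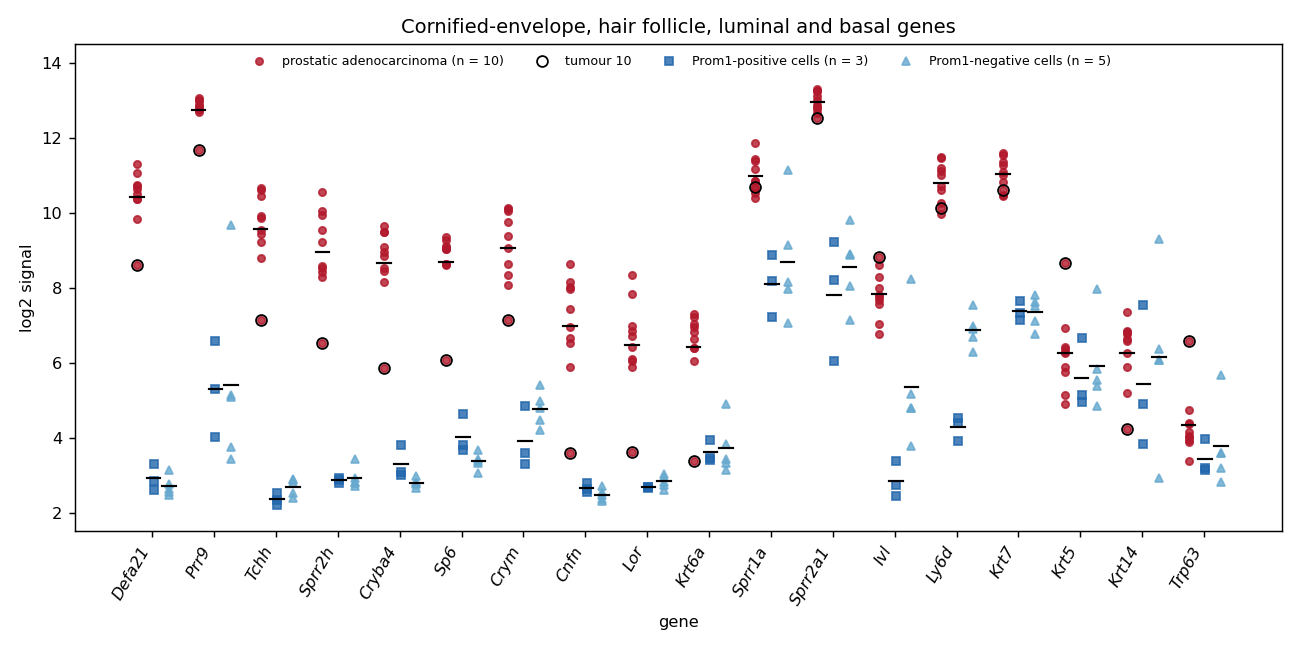
Log2 signal of 18 cornified-envelope, hair follicle, luminal and basal genes in 10 tumours (circles, left in each trio, tumour 10 ringed), 3 Prom1-positive (squares) and 5 Prom1-negative samples (triangles), with the group mean as a black bar. Every tumour stood above every sorted sample from Defa21 to Lor, with tumour 10 the lowest tumour, and the groups overlapped for Krt5, Krt14 and Trp63.

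Feedback genes of Wnt signalling rose together. Of the 15 members of the Wnt list that passed, 12 rose and none fell (median 2.17), with 11 rising against positive cells (where 13.1% of all genes rose) and 12 against negative cells (20.6%). Dkk2, a secreted Wnt modulator, was at 4.89 in tumour 10 and 9.51 to 11.33 in the others, against 2.88 to 3.53 in positive and 4.31 to 6.35 in negative cells. It rose by 5.61 (SE 0.39, adjusted p = 1.65e-23). Apcdd1, a membrane inhibitor of Wnt ligands, was at 8.26 in tumour 10 and 9.83 to 11.52 in the others, against 4.99 to 7.37 in positive and 4.87 to 7.03 in negative cells, and rose by 4.39. Axin2, a scaffold of the complex that degrades beta-catenin and the usual readout of the pathway, was at 6.11 in tumour 10 and 8.68 to 10.27 in the others, against 6.61 to 7.29 in positive and 5.80 to 6.49 in negative cells. It rose by 2.44 (SE 0.42, adjusted p = 1.12e-06). Tumours 1 to 9 exceeded all sorted samples for these 3 genes, while tumour 10 lay among the sorted samples for Dkk2 and Axin2.

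The ubiquitin ligases Rnf43 and Znrf3, which remove Wnt receptors, rose by 2.85 and 2.76 with no overlap in any tumour. The intracellular antagonist Nkd1 rose by 2.29, Notum, which inactivates Wnt proteins, by 2.17, the secreted modulator Dkk3 by 2.21, the adhesion receptor Cd44 by 1.90 and the secreted inhibitor Wif1 by 1.63. The transcription factor Lef1 rose with levels near background, at 2.66 in tumour 10 and 3.37 to 4.71 in the others, against 2.63 to 3.41 in positive and 2.66 to 3.17 in negative cells. The transcription factor Sp5 rose by 1.49. Sp5 lost its call without positive sample 3 and rested on the negative cells, with a difference of 2.38 from them (adjusted p = 0.000289) and of 0.61 from positive cells (adjusted p = 0.559). The stem cell genes Lgr5 and Ascl2 and the inhibitor Dkk1 were not called. Lgr5 was at 5.37 to 7.66 in tumours, 3.91 to 5.16 in positive and 6.22 to 6.86 in negative cells, so that it rose against positive cells (2.02, adjusted p = 0.0318) but not against negative cells (-0.07). Without tumour 10 the list gave 12 rises and a median of 2.44, with a difference of 6.16 for Dkk2 and 2.77 for Axin2. The brightest probe set of each gene was used, and dimmer ones gave 0.39 for Axin2, 0.44 for Znrf3 and -0.13 to 1.41 for Nkd1.

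In the pathway's core, Ctnnb1, which encodes beta-catenin, was at 12.09 to 12.55 in tumours (median 12.41), against 11.12 to 11.32 in positive and 11.22 to 11.69 in negative cells. Every tumour was above every sorted sample, and it rose by 1.03 (SE 0.10, adjusted p = 1.96e-15). Apc, which scaffolds its degradation, rose by 0.87 without overlap. Promoters of 10 of the 15 Wnt list genes were in the RefSeq table, and the TCF/LEF core CTTTGAT, which reads as ATCAAAG on the other strand, was found in the 250 bases before the start of 1 of them, Sp5, where 3.21% of all 32851 promoters held it. The Sp5 promoter at chr2:70474673-70474922 (plus strand) is shown with the match in capitals, since it was the one Wnt list gene with a match.
Sp5: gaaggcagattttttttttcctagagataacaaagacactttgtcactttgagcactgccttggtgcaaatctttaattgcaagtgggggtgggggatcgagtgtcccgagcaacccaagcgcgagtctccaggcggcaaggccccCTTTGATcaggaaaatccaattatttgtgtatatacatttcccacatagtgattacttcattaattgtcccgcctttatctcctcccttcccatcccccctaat

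**Figure D3:**
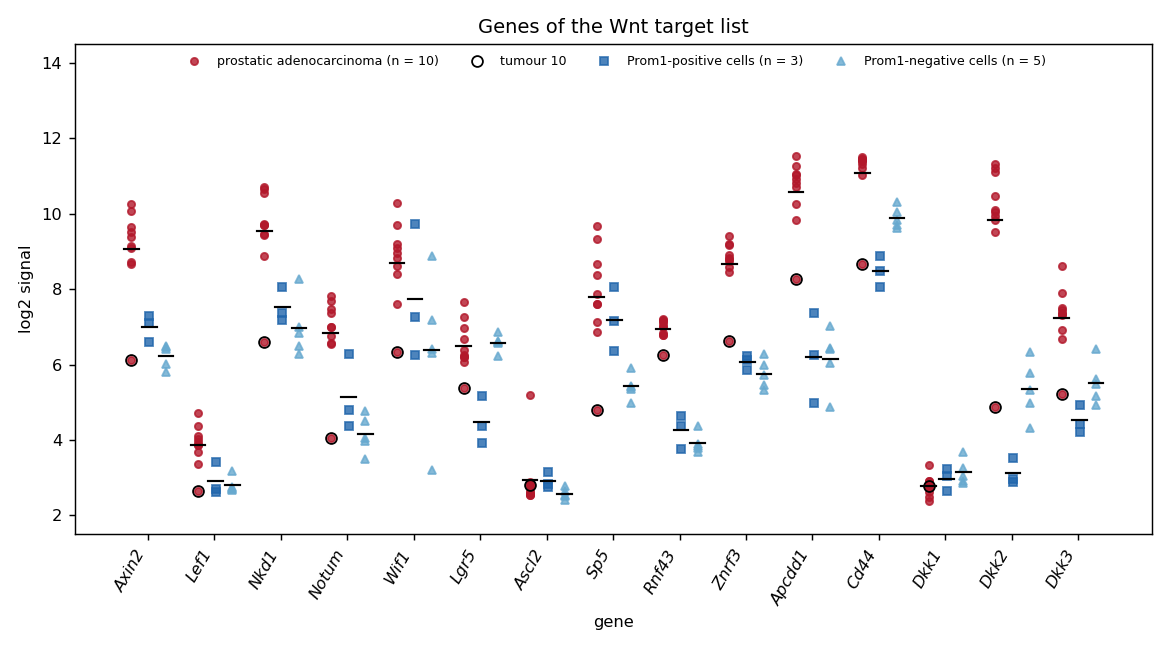
Log2 signal of 15 genes of the Wnt target list in 10 tumours (circles, left in each trio, tumour 10 ringed), 3 Prom1-positive samples (squares) and 5 Prom1-negative samples (triangles), with the group mean as a black bar. Tumour 10 was the lowest tumour for all genes shown except Ascl2 and Dkk1, and stood above all sorted samples only for Rnf43, Znrf3 and Apcdd1. It lay below all of them for Sp5 and within their range for the other 11.

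Genes of DNA replication and mitosis were higher in tumours, with tumour 10 as the exception. Of 26 members 21 rose and none fell (median 1.93). Mki67, the proliferation antigen, was at 3.08 in tumour 10 and 7.52 to 8.61 in the others, against 3.65 to 4.31 in positive and 3.44 to 5.80 in negative cells, and rose with an SE of 0.42 (adjusted p = 4.99e-09), by 3.49 without tumour 10. Cdk1, the mitotic kinase, was at 2.92 in tumour 10 and 7.45 to 8.82 in the others, against 3.65 to 4.53 in positive and 3.57 to 4.63 in negative cells, and rose by 3.59. Tumour 10 was under every sorted sample for both genes, whereas all other tumours were above. Ccna2 rose by 3.49, the mitotic survival protein Birc5 by 3.17, the topoisomerase Top2a by 3.03 and the replication helicase subunit Mcm6 by 2.46. The mean level of the list was 4.03 in tumour 10 and 6.00 to 7.11 in the other tumours, against 4.27 to 4.48 in positive and 4.28 to 4.50 in negative cells. Without tumour 10, when 21.1% of all genes rose and 16.4% fell, 22 members rose and the median was 2.17. Pcna, the replication clamp, differed by 0.00 (adjusted p = 0.998), and Foxm1, E2f1, Rrm2 and Ccne1 were not called.

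Among 24 drivers and brakes of cancer, Ctnnb1 and Apc included, 9 rose and 2 fell (median 0.25), and the median was -0.04 with the upper quartile covariate. Mycl, of the Myc family, was at 7.99 in tumour 10 and 9.16 to 10.28 in the others, against 6.97 to 7.32 in positive and 6.06 to 7.82 in negative cells, and rose by 2.61 without overlap. Myc itself was at 8.27 to 9.48 in tumours, 8.48 to 9.12 in positive cells and 10.42 to 10.62 in negative cells. It fell by 0.72, a fall present against negative cells (by 1.62) and not against positive cells (0.17, adjusted p = 0.755). The kinase inhibitor Cdkn2b rose by 2.92, the receptor Erbb3 by 1.58 and the histone methyltransferase Ezh2 by 1.27. Etv1, an ETS factor, fell by 1.19, a call lost in 10 of the 33 alternative settings, with adjusted p up to 0.127. Cdkn2a was at 5.86 in tumour 1 and 2.83 to 3.90 in the other tumours, against 2.37 to 3.95 in positive and 2.53 to 2.92 in negative cells, and was not called.

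Of the stromal genes, those of smooth muscle were higher against both sorted groups. Fibroblast and endothelial genes depended on which sorted cells the tumours were set against. Of 9 smooth muscle genes 8 rose and none fell (median 2.27). Against positive cells 7 rose (median 2.66) and against negative cells 5 (median 1.88), with no fall in either. Actg2, an actin of smooth muscle, was at 6.99 to 9.13 in tumours (median 7.92), against 2.92 to 3.14 in positive and 3.03 to 4.73 in negative cells, and rose by 4.62 without overlap. Cnn1 rose by 3.90, Tpm2 by 2.97, Acta2 by 2.88, Des by 2.27 and Myh11 by 1.96, all parts of the contractile apparatus. The mean level of the list was 9.08 in tumour 10, the highest, and 6.52 to 8.62 in the other tumours, against 4.85 to 5.10 in positive and 4.64 to 7.01 in negative cells. Without tumour 10, 6 of the 9 rose, and Myh11 was no longer called (1.68, adjusted p = 0.0524), as was the case without negative sample 1 or positive sample 1. A dimmer probe set gave 0.00 for Acta2 and -0.35 for Des. The part of tumour 10's smooth muscle signal in its other levels was not tested.

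Of 16 fibroblast and matrix genes 8 rose and 1 fell (median 1.07). Against positive cells 11 rose and none fell, and against negative cells 1 rose and 3 fell. Tnc, tenascin of remodelled stroma, was the one that rose against both, at 4.73 in tumour 10 and 7.29 to 10.44 in the others, against 2.84 to 3.89 in positive and 3.75 to 6.08 in negative cells. It rose by 4.77 (SE 0.50), and by 5.21 without tumour 10. Col1a1, of fibrillar collagen, was at 4.63 in tumour 10, 5.11 in tumour 8 and 8.08 to 10.62 in the others, against 3.68 to 6.89 in positive and 6.86 to 8.56 in negative cells. Postn, a matrix protein of activated fibroblasts, was at 7.96 to 10.77 in tumours, 5.43 to 5.73 in positive cells and 9.94 to 10.50 in negative cells, and so rose by 4.12 against positive cells and differed by -0.60 from negative cells (adjusted p = 0.371). Endothelial genes gave 1 rise among 14 (median -0.08), with 5 falls against negative cells.

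Lymphocyte genes were lower in tumours, mainly against negative cells. T and NK cell genes fell in 8 of 17 cases (median -0.72), 14 of 17 against negative cells and 1 against positive cells, where 1 also rose. The mean level of that list was 3.37 to 4.01 in tumours, against 3.37 to 3.50 in positive and 5.11 to 6.11 in negative cells. Of 10 B and plasma cell genes 8 fell. Ms4a1, the B cell antigen CD20, was at 2.45 to 3.27 in tumours, 2.87 to 6.29 in positive and 5.27 to 8.81 in negative cells, and fell by 2.88. Of 8 genes of MHC class II antigen presentation 6 fell (median -1.39), with 4 falls against positive cells (median -1.29) and 7 against negative cells (median -1.64). Cd74, the invariant chain, was at 6.90 to 9.78 in tumours (median 7.38), against 9.69 to 11.01 in positive and 9.30 to 11.31 in negative cells, and fell by 2.59. Tumour 3 was the highest tumour for it and overlapped the sorted cells. Macrophage genes gave 3 falls and no rise among 14, where 15.8% of all genes fell. They gave 5 falls against positive cells (median -1.19) and 1 against negative cells (median 0.23).

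Neutrophil genes went the other way, with 4 rises among 11 (median 0.47): Ltf (4.89), S100a8 (3.13), Lcn2 (2.36) and S100a9 (2.23). Ltf and Lcn2, an iron-binding and a siderophore-binding protein, are also made by epithelia, and Csf3r, Cxcr2 and Mpo of neutrophils were not called. S100a8 was at 5.88 to 9.38 in tumours (median 8.32), against 2.61 to 3.82 in positive and 5.31 to 8.18 in negative cells, and differed from negative cells by 1.32 (adjusted p = 0.192). Blood was uneven between the sorted groups: the haemoglobin gene Hba-a1 was at 9.96 to 12.76 in tumours, 7.49 to 8.61 in positive cells and 13.83 to 13.99 in negative cells. Against negative cells Alas2, which starts haem synthesis in red cell precursors, fell by 5.06 and it was not called against positive cells (0.87, adjusted p = 0.525).

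Immediate early genes, which are switched on within minutes by growth signals and by tissue dissociation, were lower in tumours. Of 18 such genes 17 fell and none rose (median -2.31), and for 15 all tumours lay below all sorted samples. Fosb was at 2.54 to 3.41 in tumours (median 2.84), against 8.93 to 9.94 in positive and 10.67 to 11.01 in negative cells, and fell by 7.29 (SE 0.35, adjusted p = 2.29e-35). Atf3 fell by 4.12, Fos by 3.73, Nr4a1 by 3.31, Dusp1 by 3.24, Egr1 by 3.05 and Jun by 3.01. Ier3 was the exception, at -0.53 (adjusted p = 0.403). Whether a fall came with the tumour or with dissociation of the normal cells cannot be told apart.

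The same holds for inflammatory cytokines and chemokines, of which 12 of 18 fell and 1 rose (median -2.13). Il6 was at 2.36 to 5.86 in tumours (median 5.23), against 9.17 to 10.24 in positive and 11.17 to 11.89 in negative cells, and fell by 5.99. The chemokines Cxcl1 (by 5.75), Ccl7 (by 5.54), Ccl2 (by 5.48) and Cxcl2 (by 5.42), which draw neutrophils and monocytes, fell without overlap, as did Ccl4 (by 6.20) and Cxcl10 (by 5.68). The growth factor Csf3 fell by 3.31, Il1b by 3.09 and Tnf by 2.87. Cxcl5, a neutrophil chemokine made by epithelia, was the riser, at 3.16 to 8.65 in tumours (median 6.11), against 2.51 to 2.93 in positive and 2.82 to 4.14 in negative cells, and rose by 3.01. Tumour 8 alone overlapped the sorted samples for it.

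Proteases of the tissue and their inhibitors gave 7 rises and 2 falls among 17 genes (median 0.83). Of all genes 20.9% rose and 15.8% fell. Plau, urokinase, was at 3.93 to 5.10 in tumours (median 4.56), against 7.61 to 9.57 in positive and 8.07 to 9.46 in negative cells, and fell by 4.15 without overlap. Its inhibitor Serpinb2 fell by 2.63, which came from the negative cells (by 4.17 against them, -1.08 with adjusted p = 0.437 against positive cells). Timp1, an inhibitor of metalloproteinases, was at 7.20 in tumour 10 and 8.45 to 11.43 in the others, against 5.37 to 6.23 in positive and 7.23 to 7.98 in negative cells, and rose by 3.43. Stromelysin Mmp3 rose by 2.60, the tissue activator Plat by 1.66, the membrane protease hepsin, Hpn, by 1.42 and Mmp14 by 1.29.

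Of 15 glycolysis and hypoxia genes 6 rose and 1 fell, where 20.9% of all genes rose and 15.8% fell. Egln3, an oxygen-sensing prolyl hydroxylase, rose by 4.15, at 5.41 to 9.28 in tumours (median 7.71), against 2.99 to 3.43 in positive and 3.44 to 4.07 in negative cells. The glycolytic enzyme Pkm rose by 1.21 and Ankrd37 by 1.38, while the vascular peptide Adm fell by 2.41. Car9, a carbonic anhydrase of hypoxic cells, was at 8.79 in tumour 3 and 3.40 to 4.21 in the other tumours, and was not called. Of 10 lipid synthesis genes 3 rose, where 20.9% of all genes did: Sqle (1.36), Idi1 (1.25) and the sterol-sensing factor Srebf2 (1.22). A second probe set of Srebf2, nearly as bright, gave 0.12. The sterol genes Hmgcs1 (0.64) and Mvd (0.73) were not called.

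Neuroendocrine genes fell in 6 of 14 cases and rose in 1, where 15.8% of all genes fell and 20.9% rose. Scg2, a granin of secretory granules, was at 2.50 to 2.76 in tumours 1 to 8, 3.33 in tumour 9 and 5.32 in tumour 10, against 5.16 to 6.58 in positive cells and 7.47 to 8.92 in negative cells, with negative sample 1 at 3.22. It fell by 3.41, Scg5 by 3.74 and Eno2, an enolase of nerve and endocrine cells, by 1.90. Negative sample 1 was as low as the tumours for these genes, and without it Scg2 fell by 3.90, Scg5 by 4.27 and Eno2 by 2.27. Foxa2, a forkhead factor, rose by 1.90. Of 13 genes of ERK signalling output 3 rose and 1 fell, near the share of all genes, of which 20.9% rose and 15.8% fell. Among them the phosphatase Dusp4 (2.10) and the ETS factor Etv4 (1.17) rose, and Hbegf, an EGF receptor ligand, fell by 2.13. Notch and Hedgehog genes (3 rises and 2 falls among 16) and genes of epithelial to mesenchymal transition (4 and 3 among 14) showed no common direction. In the last list the epithelial factor Ovol1 rose by 1.69, and the mesenchymal factors Twist2 and Twist1 fell by 1.53 and 1.08.

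To ask which differences set the prostate apart, its tumour minus normal difference was tested against the mean of the same difference in lung, liver, stomach and uterus, where sorted cells were again set against whole tumours. In this test 3216 of 14663 genes passed (21.9%), 1283 above the other organs (8.75%) and 1933 below (13.2%). The Wnt list had 10 of 15 members above and none below. Its median difference was 2.17 in prostate, against -0.42 in lung, 0.20 in liver, -0.21 in stomach and 0.06 in uterus. Dkk2 differed by 5.61 in prostate, against 0.61, 0.09, 3.09 and 1.35 in lung, liver, stomach and uterus, and Axin2 by 2.44, against -0.99, 0.59, -0.31 and -1.85. Not every member differed most in prostate. In stomach Dkk3 differed by 3.56, against 2.21 in prostate, and Cd44 by 2.15, against 1.90. Ctnnb1 exceeded the other organs by 0.62 (adjusted p = 5.6e-06).

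Secretory pathway genes were below the other organs in 10 of 13 cases, with a median of -1.48 in prostate and -0.23 to 0.08 elsewhere. Of the prostate secretory list 8 of 9 were below, among them Sbp (by 8.32), Msmb (by 7.70) and Spink1 (by 7.37), as were Pate14, Sult1e1, Pate4, Svs5 and Svs2. The prostate secretory list was chosen for this organ, and its medians in the other organs were only -0.52 to -0.03. For it the contrast largely repeats the fall within prostate and adds no separate result. Among genes with a name that were called in both comparisons, the 8 furthest above the other organs were Defa21 (7.71), Prr9 (6.95), Tchh (6.43), Cryba4 (5.85), Ctse (5.69), Sprr2h (5.54), Sprr2a1 (5.07) and Crym (4.79). Tchh averaged 9.56 ± 1.04 in prostate tumours (SD, n = 10), against 7.06 ± 1.70 in squamous cell carcinomas of the skin (SD, n = 6) and under 4 in the other tumour types. Cell cycle genes were above the mean of the other organs in 17 of 26 cases, smooth muscle genes in 6 of 9. Luminal genes were above it in 3 of 16, with 2 below. These lists were not higher in prostate alone. Cell cycle medians were 1.93 in prostate, 1.52 in uterus, 1.02 in liver, 0.22 in lung and -0.06 in stomach. Smooth muscle medians were 2.27 in prostate, 1.61 in stomach, -0.08 in liver, -0.14 in uterus and -1.33 in lung. Luminal medians were 1.04 in prostate, 1.77 in lung, 1.72 in liver, 0.82 in uterus and -0.21 in stomach.

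Other differences were shared with some or all of the other organs. Of the 18 immediate early and heat shock genes 6 were further down in prostate and none was higher. The list medians were -2.31 in prostate, -2.51 in lung, -1.38 in liver and -2.85 in uterus, with the stomach median nearest to 0. Fos differed by -3.73 in prostate, against -3.77, -4.44, -2.84 and -3.86 in lung, liver, stomach and uterus. Fosb was among the 6, at -7.29 in prostate, -5.68 in lung, -1.64 in liver, -3.14 in stomach and -7.64 in uterus. Of 18 inflammatory genes 10 were below the other organs and 1 above, with medians of -2.13 in prostate, -2.40 in lung, 0.14 in liver, 1.97 in stomach and -1.65 in uterus. The squamous list had a larger median in uterus (2.20) than in prostate (0.70), and 4 of its 15 members stood above the mean of the other organs.

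**Figure D4:**
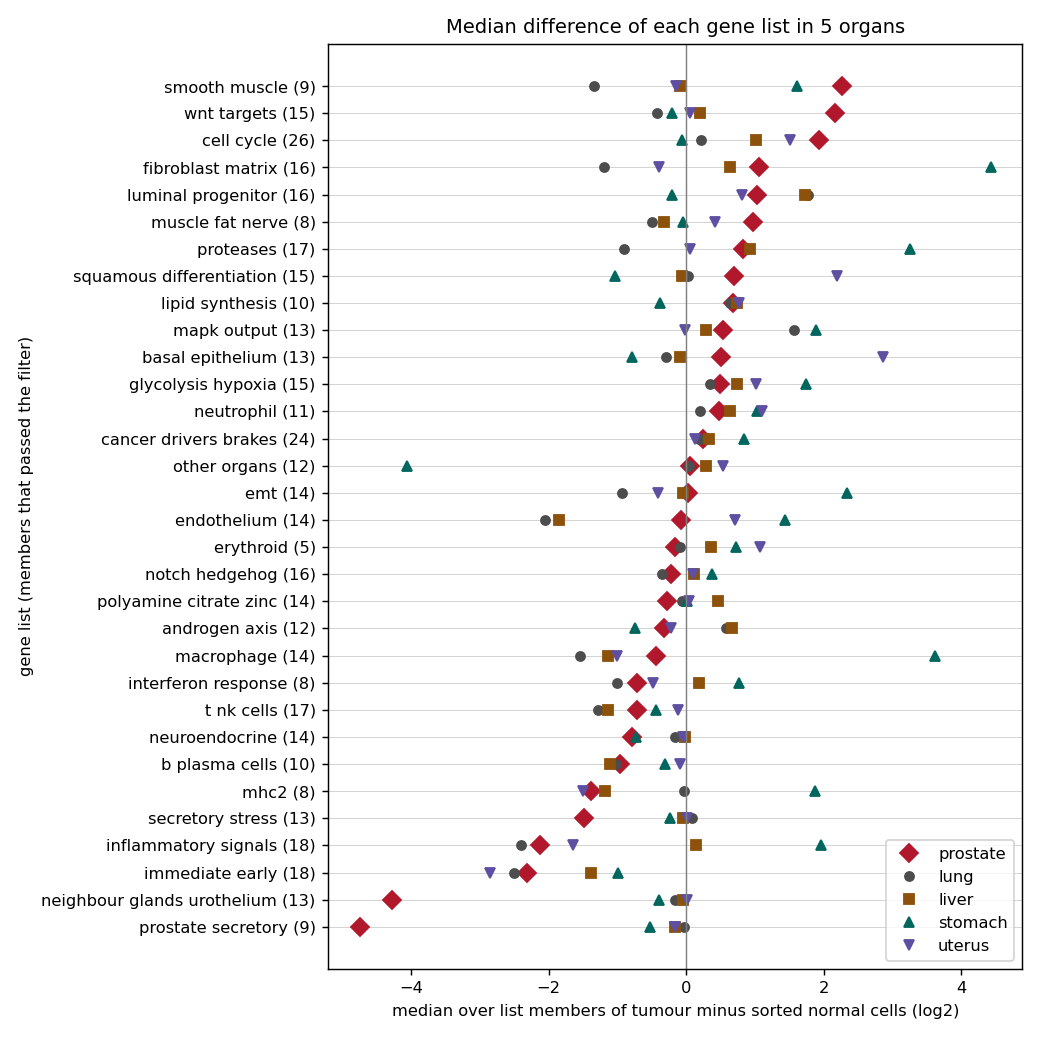
Median over the members of each of 32 gene lists of the tumour minus normal difference (log2) in prostate (diamonds), lung (circles), liver (squares), stomach (upward triangles) and uterus (downward triangles), with lists ordered by the prostate value and the number of members in brackets. Prostate stands alone at 2.17 for Wnt targets and -1.48 for the secretory pathway. It lies among the other organs at -2.31 for the immediate early list, which also holds heat shock genes. For prostate secretions, a list chosen for this organ, prostate is at -4.75 and the others at -0.52 to -0.03.

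The 10 tumours were not alike, and the genes in the following account were chosen after their values were seen, from those with the largest SD among tumours. Tumour 3 held a set of intestinal epithelial transcripts: Lypd8 (12.70), the intestinal alkaline phosphatase Alpi (11.07), Krt20 (10.87), the gut transcription factor Hnf4a (10.34) and the lectin Lgals4 (11.90). In the other tumours these were at 2.83 to 4.59, 2.35 to 2.72, 2.65 to 5.80, 3.04 to 7.71 and 3.63 to 9.28. Tumour 1 was the next highest for Lypd8, Hnf4a and Lgals4. Reg3b, a lectin of inflamed gut, and Dmbt1, a mucosal scavenger protein, were at 12.80 and 12.44 in tumour 3, 10.72 and 9.89 in tumour 1 and 8.78 and 8.74 in tumour 7. Vil1, villin of the brush border, was high beyond these tumours, at 4.19 in tumour 10 and 7.68 to 10.21 in the other tumours, against 3.46 to 3.59 in positive and 3.27 to 3.98 in negative cells, and rose by 4.49.

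Tumours 9 and 10 shared transcripts of skeletal muscle and fat. Ckm, muscle creatine kinase, was at 8.54 and 8.72 in them and 2.57 to 2.85 in the other tumours. Myh4 was at 9.19 and 7.16, against 2.32 to 2.60, and Adipoq, a hormone of fat cells, at 9.48 and 10.83, against 2.56 to 5.35. The muscle, fat and nerve list had a mean level of 8.41 in tumour 9 and 8.93 in tumour 10. These were also the tumours with high Sbp, Msmb and Spink1, and the part of neighbouring tissue in those levels was not tested. Granzymes Gzmd, Gzmf and Gzmg, serine proteases of cytotoxic cells, were highest in tumours 7 (9.93, 9.81 and 9.29) and 6 (8.98, 8.80 and 8.37) and at 2.14 to 2.57 in tumours 5, 8, 9 and 10.

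**Figure D5:**
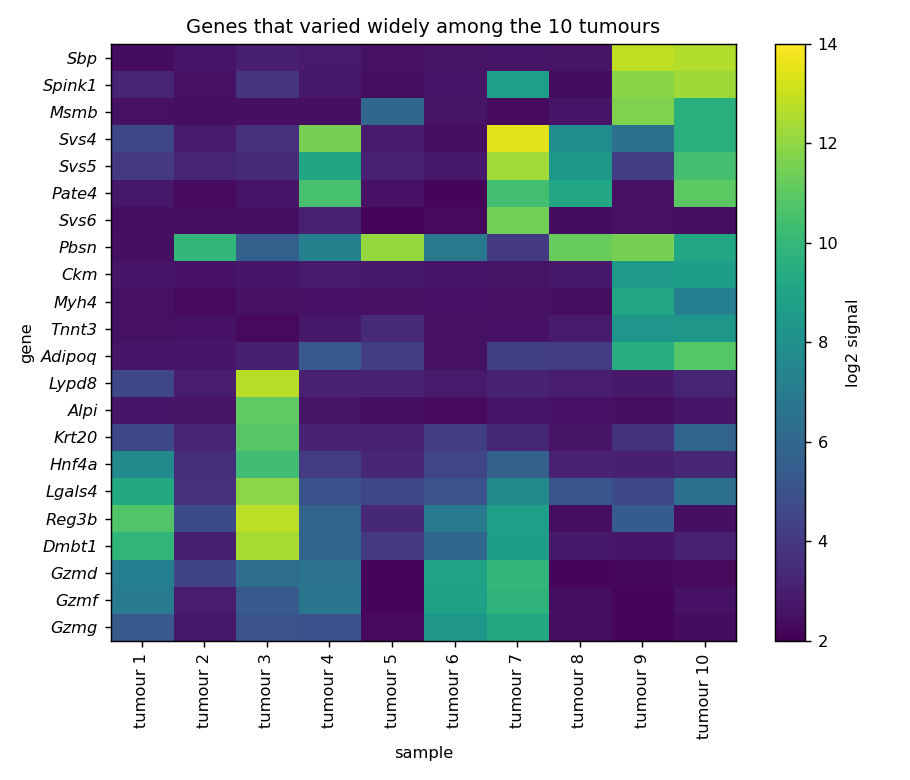
Log2 signal (colour, 2 to 14) of 22 genes that varied widely among the 10 tumours, chosen after their values were seen. Sbp, Msmb, Spink1 and the muscle and fat genes are brightest in tumours 9 and 10, and Pbsn in tumours 5, 8 and 9. Svs4, Svs5 and Pate4 are brightest in tumours 4, 7, 8 and 10, and Svs6 is bright in tumour 7 alone. The intestinal genes are brightest in tumour 3, with Lgals4, Reg3b and Dmbt1 also high in tumours 1 and 7.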

How the data were processed

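RNA of 117 mouse samples, 66 tumours and 51 sorted cell samples, was measured on single-colour Affymetrix arrays. The values are the authors' deposited log2 signals. The submitters' processing notes name RMA, a method of background correction, quantile normalization and probe summary, and the software Partek 6.6. No array was identical to another. Of 45141 probe sets, 28898 had 1 gene symbol, 551 several and 15692 none in GEO's platform annotation, and symbols were updated with RefSeq GRCm38.p6. The probe set with the highest mean signal stood for each of 17097 genes, and the 14663 genes above the array median in at least 3 arrays were tested. limma 3.58.1 (lmFit and eBayes, in R 4.3.3, with version 1.17.8 of data.table) fitted 19 group means over all 117 samples, with Benjamini-Hochberg adjustment over all genes tested. This shares 1 spread per gene among the groups. The 4 contrasts were tumours minus the mean of both sorted groups, tumours minus each sorted group, and the prostate difference minus the mean difference of 4 other organs. Figures were drawn with Python 3.11.15 and matplotlib 3.10.9.

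Named were Prom1, members of 32 gene lists (437 of 496 entries passed the filter), the 15 largest rises and 15 largest falls without overlap of tumours and sorted samples, and the 8 genes each way furthest from the other organs, passing over names that are only IDs. The members and lists were chosen with earlier results of these data known, and no list was given a p. Alternatives were the probe set rule, the filter, scaling, array weights, fewer samples, sample codes, replicate blocks and sorted samples pooled with equal weight. The numbers in the titles do not pair the samples, since deviations of same-numbered positive and negative samples correlated at -0.07, -0.06 and 0.18. Positive and negative samples with neighbouring sample codes correlated at 0.41, 0.09 and 0.48, but the labels do not say that codes mark a shared preparation. On simulated data with 100 genes changed by 1 log2 unit and 100 by 2, the tumour comparison with the normal reference recovered 69% and 97%. Against positive cells the shares were 50% and 89%, and against negative cells 62% and 97%. The simulated scatter was normal and equal in all groups, so these shares do not cover genes that split the tumours, such as Sbp. The number of arrays limits the precision.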

Additional observations from a re-analysis of the deposited data

Results flagged for a closer look

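Single samples stood far from the rest of their group for 12 of 70 sets of values tested with Dixon's test, which by chance marks about 1 in 20 groups. Tumour 10 was the lowest of the tumours for Prr9 (11.7), Tchh (7.15), Cryba4 (5.86), Slc40a1 (8.66) and Sp6 (6.07), and the highest for Scgb2b27 (7.57). Tumour 7 was the highest for Pate14 (10.15). Negative sample 1 was the highest of the negative samples for Prr9 (9.66) and Sprr2h (3.42) and the lowest for Il6 (11.17) and Sult1e1 (10.14). Negative sample 3 was the lowest for Svs5 (10.72). So 10 of the 12 concerned tumour 10 or negative sample 1.

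For 34 of the 35 genes examined, the tumour minus normal difference of the prostate departed from the mean of the same difference in lung, liver, stomach and uterus, by the test of that difference in limma. The exception was Prom1. All the others had been chosen for the size of their prostate difference or of this contrast itself, so that their passing was close to fixed by the choice and supports nothing. Further above in prostate were Defa21 (7.71), Prr9 (6.95), Tchh (6.43), Cryba4 (5.85), Ctse (5.69), Sprr2h (5.54), Sprr2a1 (5.07), Crym (4.79), Slc40a1 (4.70), Sp6 (4.56), Actg2 (4.20), Ly6d (3.50), S100a14 (2.89), Arg1 (2.65) and Ltbp2 (2.08). Further below were Sbp (-8.32), Msmb (-7.70), Pate14 (-7.53), Spink1 (-7.37), Sult1e1 (-6.73), Pate4 (-6.60), Svs5 (-6.38), Svs2 (-6.28), Scgb2b27 (-6.25), Fcgbp (-5.34) and Atp12a (-5.26). The immediate early gene Fosb (-2.76) and the inflammatory genes Cxcl1 (-4.72), Ccl2 (-4.12), Cxcl10 (-3.76), Ccl4 (-3.48), Il6 (-3.44), Ccl7 (-3.29) and Cxcl2 (-2.74) were further below in prostate than in the mean of the other organs, but not than in each of them. The difference was -5.42 in prostate and -7.36 in lung for Cxcl2, -5.99 and -6.60 for Il6, and -5.54 and -5.65 for Ccl7, and for Fosb it was -7.29 in prostate and -7.64 in uterus. For Arg1 it was 4.82 in prostate and 5.30 in stomach.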

How the results depend on the processing

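With tumours set against the normal reference, Prom1-positive cells, Prom1-negative cells and the other organs in turn, 5385, 3608, 5126 and 3216 genes passed. Array weights raised these counts to 8104, 5951, 8561 and 6009. With tumours 1 to 3 alone, whose sample codes lie below those of the sorted samples, the counts against the normal reference, negative cells and other organs were 3458, 3371 and 2018, with fewer samples in the fit. Leaving out 1 sample at a time gave 4504 to 5498, 2313 to 3820, 4487 to 5133 and 2768 to 3357. The 2313 against positive cells came without positive sample 1. With the upper quartile covariate 1295 genes were higher and 2171 lower than in positive cells (1915 and 1693 as reported), and 2325 and 2428 in the comparison with negative cells (3018 and 2108). Repeated quantile normalization gave 1522 and 2026 against positive cells. With positive and negative samples of neighbouring codes as a random block the counts were 5050, 3772, 5117 and 2964. A replicate block by the number in the titles gave 5355, 3604, 5125 and 3200 and changed no call of a named gene. The difference Prom1 tumour minus normal prostate cells turned in sign, to 0.0487 with array weights, 0.36 with tumours 1 to 3 alone and 0.0169 with tumour 10 and negative sample 1 left out, the last chosen after seeing the data. The cause of these shifts was not tested. Of the counts, 120 values stayed within 1.5 times those reported. The 30 named genes of the comparison with the normal reference kept their direction and call in all 33 settings, and the 16 of the comparison with other organs in all 31. Over the settings the Wnt list gave 11 to 13 rises, the cell cycle list 19 to 23, the luminal list 3 to 12, the smooth muscle list 4 to 8, and the seminal vesicle list 6 to 9 falls. With tumours 1 to 3 alone, Des, Myc, Erbb3, Serpinb2, Hpn, Etv4, Hbegf, Il1b, Alas2 and Sms were among the genes no longer called, and with the other 7 tumours alone Zbtb16, Idi1 and Sqle were.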

Other observations

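Antiviral and interferon response genes gave 4 falls and 1 rise among 8 (median difference -0.71). Rsad2, an antiviral enzyme, was at 5.94 to 7.65 in tumours, against 8.67 to 11.37 in positive and 8.69 to 10.28 in negative cells, and fell by 2.90 with every tumour below every sorted sample. Ifit1, which binds viral RNA, fell by 2.03, a call lost without positive sample 3. Usp18, which damps the interferon response, rose by 1.67, with 6.14 to 7.59 in tumours, 4.55 to 5.66 in positive and 5.29 to 6.30 in negative cells. Of macrophage genes, the receptors Cd14 (by 1.65), Adgre1 (by 1.22) and Csf1r (by 1.18) fell, with overlapping groups. Csf1r fell against positive cells (by 1.98) and was not called against negative cells (-0.38, adjusted p = 0.541).

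Among 12 markers of other organs 2 rose and 1 fell (median 0.05). Alb, serum albumin of the liver, was at 3.58 in tumour 10 and 5.35 to 7.38 in the other tumours, against 2.79 to 3.55 in positive and 2.71 to 3.63 in negative cells, and rose by 2.78. Vil1 was the other riser. Sftpc, a surfactant protein of the lung, was at 2.45 to 2.90 in tumours, against 2.83, 2.95 and 7.86 in positive cells and 2.74 to 3.35 in negative cells with 8.72 in negative sample 3. Only positive sample 1 and negative sample 3 were high, and without positive sample 1 the fall of 1.70 was not called. Among 8 muscle, fat and nerve genes 2 rose and 1 fell, and without tumour 10, 1 rose and 1 fell. Acta1, of skeletal muscle, was at 10.05 in tumour 9, 10.03 in tumour 10 and 3.75 to 7.63 in the other tumours, against 3.28 to 3.79 in positive and 3.89 to 4.99 in negative cells. Of 5 erythroid genes 1 rose and 1 fell.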
